A study of Rattus norvegicus with 8 samples.

Results

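The genes described here are those that make, load, take up and break down acetylcholine (*Chat*, *Slc18a3*, *Slc5a7* and *Ache*), the neuronal nitric oxide synthase gene *Nos1*, the urotensin II receptor gene *Uts2r* and the genes of its peptide ligands, *Uts2* and *Uts2b*. They were chosen by gene symbol, with *Uts2r* taken because it was already known to be higher in the AAV-αSyn group, so the difference between the groups is given for each of them as a description and without a test. They are 8 of the 16678 genes that could be named on the array, which carried 9 probes for them among 45598, and 8 of the 9 probes, for 7 genes, were above background on at least 1 array and were among the 33848 probes analysed.

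The tissue was the injected-side *substantia nigra* (SN) of female Sprague Dawley rats, 3 months old at the start, 20 weeks after a unilateral stereotaxic injection into the SN. The AAV-αSyn group received AAV6 carrying wild-type human α-synuclein at 5.2e10 vg/µL, and the AAV-Null group received AAV6-Null at 5.3e9 vg/µL, so that transgene and titre cannot be told apart. Of 10 rats assigned to each group, 4 arrays per group were deposited, and the sources used here do not name the promoter of the vector. The methods call the samples of a group biological replicates, from SN dissected brain by brain, so the spread between arrays is taken as that between samples of different rats. The 8 arrays lie on 1 slide, each with 58717 spots other than controls, of which 74.8% to 77.5% were well above background.

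Cholinergic neurons make acetylcholine with choline acetyltransferase, pack it into vesicles with the vesicular transporter, and recover choline from the cleft with a high-affinity transporter after acetylcholinesterase has split the transmitter. The cholinergic neurons nearest to the SN are those of the pedunculopontine and laterodorsal tegmental nuclei, many of which also make nitric oxide and carry the urotensin II receptor, a receptor coupled to Gq. Cranial motor neurons are cholinergic as well, and *Uts2* is best known from motor neurons of the brainstem and spinal cord. Dopaminergic neurons of the SN carry nicotinic receptors and make acetylcholinesterase but lack choline acetyltransferase. The RNA is that of whole tissue, so more cells of a type and more RNA per cell cannot be told apart.

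The sequences before the annotated starts of *Uts2r* and *Slc5a7*, whose groups of arrays did not overlap, and of *Chat*, the defining gene of cholinergic neurons, are shown to place the members in the genome (RefSeq, GRCr8, 250 bases before the start, 5′ to 3′). Capitals mark TGACG or its other strand CGTCA, the core of the cyclic AMP response element.
Uts2r, chr10:106936148-106936397, plus strand: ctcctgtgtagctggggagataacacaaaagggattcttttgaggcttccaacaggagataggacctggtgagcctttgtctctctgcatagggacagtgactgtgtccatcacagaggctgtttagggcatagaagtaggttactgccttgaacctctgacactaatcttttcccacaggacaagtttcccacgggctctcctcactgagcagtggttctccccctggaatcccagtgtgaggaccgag
Slc5a7, chr9:7953510-7953759, minus strand: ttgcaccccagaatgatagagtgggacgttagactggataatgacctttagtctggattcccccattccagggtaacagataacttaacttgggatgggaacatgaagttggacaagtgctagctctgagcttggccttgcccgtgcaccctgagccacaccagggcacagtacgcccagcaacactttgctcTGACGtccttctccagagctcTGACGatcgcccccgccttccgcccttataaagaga
Chat, chr16:7723417-7723666, minus strand: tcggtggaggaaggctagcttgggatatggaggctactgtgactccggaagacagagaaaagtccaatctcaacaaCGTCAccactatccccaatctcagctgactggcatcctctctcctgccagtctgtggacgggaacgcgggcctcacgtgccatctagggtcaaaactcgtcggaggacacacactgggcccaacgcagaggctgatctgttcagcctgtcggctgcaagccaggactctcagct
TGACG was searched on both strands in windows of 300 bases, from 250 before to 50 after the start. It was found in the windows of 5 of the 8 members (*Chat*, *Slc5a7*, *Ache*, *Nos1* and *Uts2*) and in 21.2% of 33469 rat promoters. The *Slc5a7* window held it at 2 places, and the windows of *Uts2r*, *Slc18a3* and *Uts2b* did not hold it. The annotated start of *Uts2r* falls on an ATG. Its window may therefore precede the coding start and not be its promoter, which was not checked. The palindrome TGACGTCA, which overlaps TGACG and CGTCA, was found in the window of *Nos1* alone among the members and in 1.83% of all promoters. A match of these letters is a description and not a binding site. *Slc18a3* lies inside the span of *Chat* on chromosome 16, on the same strand, the nested arrangement known as the cholinergic gene locus.

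*Uts2r* (A_43_P12073, NM_020537) was called above background on 4 of the 4 AAV-αSyn arrays and on 0 of the 4 AAV-Null arrays. The values of single arrays are given here and below on the log2 scale, as scanner intensity after quantile normalization, in the order of replicates 1 to 4. They were 2.17, 1.41, 2.50 and 1.47 in the AAV-Null group and 5.30, 3.91, 4.93 and 5.14 in the AAV-αSyn group. The groups therefore did not overlap, with AAV-αSyn replicate 2 the lowest of its group. The means were 1.88 ± 0.54 (SD, n = 4 arrays) and 4.82 ± 0.62 (SD, n = 4), a log2 difference of 2.93 (standard error 0.36). Since the AAV-Null signals are below the lowest signal called above background, which lay between 2.56 and 3.48 on those arrays, the difference is not a size. Set against that lowest signal, or the signal of the probe itself where that was higher, the AAV-αSyn mean of *Uts2r* was at least 3.23-fold higher. The gene passed the filter on dim probes through the AAV-αSyn arrays alone, and its lowest signal there, 3.91, lies just above the range of 2.52 to 3.50 in which calls above background began on those arrays. With a normexp background correction, which adds an offset of 50 to every intensity, the log2 difference was 0.46 (standard error 0.096).

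Of the 33848 probes, 7 (0.0207%) shared the pattern of *Uts2r*, above background on all 4 AAV-αSyn and on none of the AAV-Null arrays, and 2 had the opposite pattern. *Uts2r* was known to be higher when it was chosen, and the differences of these probes have no order, since their AAV-Null signals are not above background. The others with a gene symbol were *LOC102556374*, *Nps*, which encodes neuropeptide S, a peptide made by a small group of brainstem neurons, and *Mmp19*, a matrix metalloproteinase.

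The ligand *Uts2* (A_64_P078020, NM_019160), which encodes urotensin II, varied widely within both groups. The arrays read 9.75, 6.56, 10.57 and 9.05 in the AAV-Null group and 9.79, 7.83, 5.70 and 10.22 in the AAV-αSyn group. The groups overlapped almost entirely, with the lowest array in the AAV-αSyn group (replicate 3) and the highest in the AAV-Null group (replicate 3). The arrays spanned 4.87 log2 units, and the SD within groups was higher than that of 99.6% of all probes analysed. The log2 difference was −0.59 (standard error 1.16). It depended on single arrays, being 0.30 without AAV-αSyn replicate 3 and −1.40 without AAV-Null replicate 2. It was −0.34 without AAV-Null replicate 1, −0.07 without AAV-Null replicate 3, −1.06 without AAV-αSyn replicate 1 and −1.21 without AAV-αSyn replicate 4. With weights for the quality of each array it was 0.35. The other ligand gene, *Uts2b* (A_64_P135567, NM_198133), which encodes urotensin II-related peptide, was above background on 0 of the 8 arrays. Its signal of 1.30 to 3.26 on the log2 scale has no order between the groups.

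*Slc5a7* (A_43_P15511, NM_053521), which encodes the high-affinity choline transporter, was above background on all 8 arrays. The arrays gave 9.70, 7.82, 9.41 and 9.37 in the AAV-Null group and 10.67, 10.04, 10.23 and 11.06 in the AAV-αSyn group. The groups did not overlap, and AAV-Null replicate 2 stood well below the rest. The means were 9.07 ± 0.85 (SD, n = 4) and 10.50 ± 0.46 (SD, n = 4), a log2 difference of 1.43 (standard error 0.42) or 2.69-fold. Leaving out any 1 array gave log2 differences between 1.01 and 1.63.

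*Chat* (A_44_P1080250, NM_001170593), the choline acetyltransferase gene, gave 10.28, 7.84, 10.38 and 9.67 in the AAV-Null group and 11.12, 10.27, 10.27 and 11.41 in the AAV-αSyn group. The groups overlapped, AAV-Null replicates 1 and 3 lying level with AAV-αSyn replicates 2 and 3. The means were 9.54 ± 1.18 (SD, n = 4) and 10.77 ± 0.59 (SD, n = 4), a log2 difference of 1.22 (standard error 0.57). A single array carried much of it, for the difference was 0.66 without AAV-Null replicate 2, and it was 2.03 with weights for the quality of each array. A second, dimmer *Chat* probe (A_44_P210502, listed under the same accession) disagreed, at 4.31 to 4.85 on the AAV-Null and 4.39 to 4.68 on the AAV-αSyn arrays, a log2 difference of 0.02 (standard error 0.14). It was above background on all 8 arrays, and its sign changed in 4 of the 8 comparisons with 1 array left out, which ranged from −0.04 to 0.14 (lowest without AAV-Null replicate 2, highest without AAV-Null replicate 3). The mean of both probes gave 0.62. Which stretch of the transcript each probe covers was not checked.

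*Slc18a3* (A_64_P008171, NM_031663), the vesicular acetylcholine transporter gene, was 8.84, 7.88, 9.64 and 8.39 in the AAV-Null group and 9.40, 8.75, 8.89 and 9.64 in the AAV-αSyn group. The groups overlapped, AAV-Null replicate 3 being as high as AAV-αSyn replicate 4 and AAV-Null replicate 2 the lowest array. The log2 difference was 0.48 (standard error 0.37). It was 0.21 without AAV-Null replicate 2, 0.80 without AAV-Null replicate 3 and 0.90 with array weights.

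*Ache*, the acetylcholinesterase gene (A_44_P153789, NM_172009), was 12.26, 12.46, 13.35 and 12.28 in the AAV-Null group and 12.39, 12.49, 12.67 and 12.52 in the AAV-αSyn group. Apart from AAV-Null replicate 3, the arrays of both groups lay within the same narrow range. The log2 difference was −0.07 (standard error 0.23). It was 0.18 without AAV-Null replicate 3 and 0.10 with array weights, and between −0.18 and −0.03 without any other array, the extremes being without AAV-Null replicate 1 and AAV-αSyn replicate 1.

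*Nos1* (A_44_P473047, NM_052799) was 6.26, 6.73, 6.18 and 6.29 in the AAV-Null group and 6.75, 6.50, 7.35 and 7.12 in the AAV-αSyn group. The groups overlapped through AAV-αSyn replicate 2, which was below AAV-Null replicate 2. The means were 6.37 ± 0.25 (SD, n = 4) and 6.93 ± 0.38 (SD, n = 4), a log2 difference of 0.56 (standard error 0.20). With normexp it was 0.30.

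**Figure D1:**
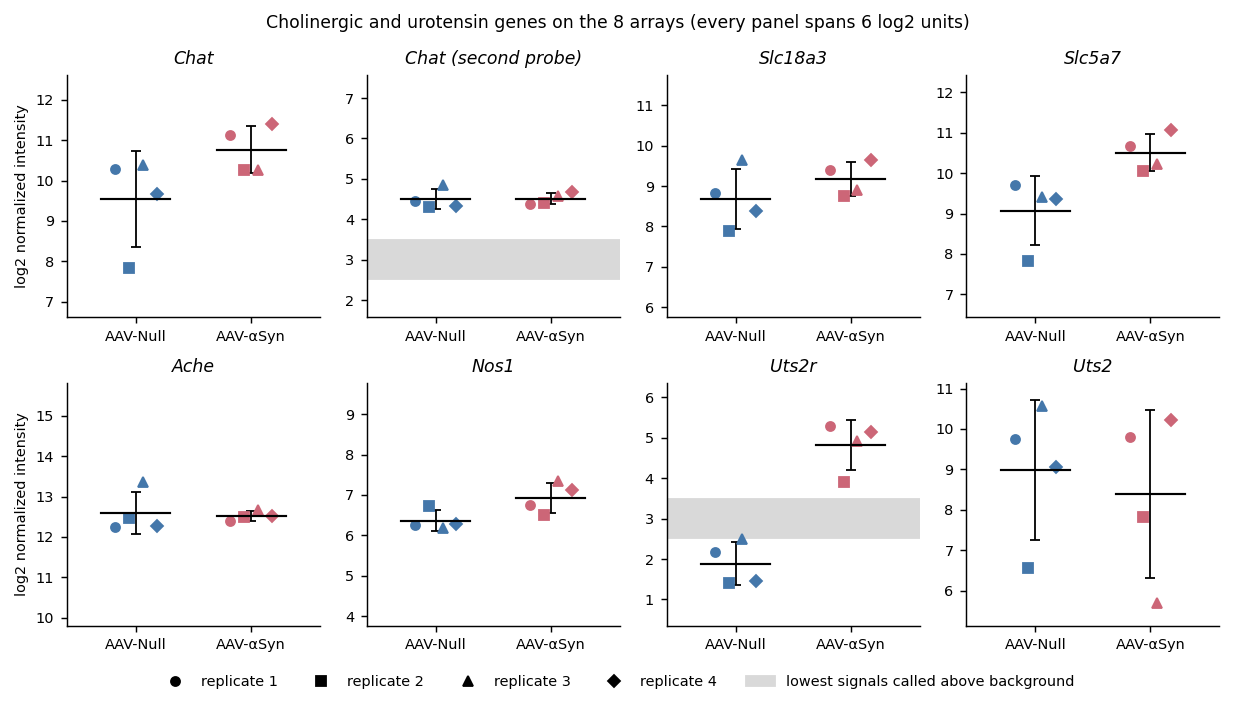
The log2 normalized intensity (vertical axis) of the 8 probes on each array is plotted by group (blue, AAV-Null; red, AAV-αSyn), with a marker shape for each replicate number, bars for the group mean and SD (n = 4), and a grey band for the range of the lowest signals called above background. The AAV-Null arrays of *Uts2r* lie between 1.41 and 2.50 and its AAV-αSyn arrays between 3.91 and 5.30. AAV-Null replicate 2 is the lowest array for *Chat*, *Slc18a3* and *Slc5a7*.

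Across the members, 2 of the 8 probes, those of *Uts2r* and *Slc5a7*, had groups that did not overlap, both higher in the AAV-αSyn group, where 3.83% of all probes did so, 2.56% in this direction and 1.26% in the other. All 8 had a spread within groups above the median of the probes analysed, 0.19 on the log2 scale, from the 53.9th percentile for the dim *Chat* probe to the 99.6th for *Uts2*. The members were chosen with this contrast known, and nothing is read from these counts.

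The likeness of 2 genes was measured as the root mean square distance between their profiles over the 8 arrays, each on the log2 scale with its own mean taken off. The brightest probe of a member was compared with all named probes above background on all 8 arrays. Each other gene was ranked by its nearest probe. Among 12595 named genes, *Slc5a7* was nearest to *Chat*, at 0.29 log2 units. Then came *Lhx4*, a LIM homeobox gene of motor neuron development, at 0.37, *Sln*, which encodes sarcolipin, at 0.56, *Slc18a3* at 0.56 and *Colq*, which encodes the collagen tail that anchors acetylcholinesterase, at 0.57. *Chat* was in turn nearest to *Slc5a7*, followed by *Sln*, *Pipox*, *Colq* and *Lhx4* over these arrays. The genes nearest to *Slc18a3* were *Dysf*, *Colq*, *Cda*, *Pced1b* and *Coro6*, at 0.27 to 0.31. The points share their libraries, and no test is given.

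The order near *Chat*, *Slc5a7* and *Slc18a3* leaned on AAV-Null replicate 2, the lowest array for *Chat* (7.84), *Slc5a7* (7.82), *Slc18a3* (7.88), *Lhx4* (4.47) and *Colq* (4.29). Over the 7 other arrays, *Slc5a7* ranked 3 by its distance to *Chat*, *Slc18a3* number 14, *Sln* number 28, *Lhx4* number 29 and *Colq* number 86. By their distance to *Slc5a7* over those 7 arrays, *Chat* was number 2, *Sln* number 20, *Colq* number 242 and *Lhx4* number 3931, and by distance to *Slc18a3*, *Colq* was number 169. With the mean of each group taken off in place of the mean of all arrays, 4 of the 5 genes nearest to *Chat* were shared, against 2 of 5 for *Slc5a7* and 2 of 5 for *Slc18a3*, and *Calcb*, which encodes a calcitonin gene-related peptide found in motor neurons, took the place of *Sln* near *Chat*. Without AAV-Null replicate 2, *Calcb* was number 11612 by its distance to *Chat*.

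*Uts2*, with its span of 4.87 log2 units, lay far from nearly every gene in distance, and 2 cholinergic genes ranked among its nearest profiles. *Slc18a3* was number 7 and *Chat* number 8 of the 12595 genes, at distances of 1.37 log2 units, while *Slc5a7* was number 399. With group means taken off, *Chat* was number 4, *Slc5a7* number 7 and *Slc18a3* number 9. The gene nearest to *Uts2* was *RT1-Bb*, a class II histocompatibility gene, at 0.66, followed by *Calcb* at 0.98, *Lhx4*, *Anxa4* and *Hpse*. The profile of *Ache* was nearest to those of *Fbxo44*, *Lrp1*, *Csdc2*, *R3hdm2* and *Lynx1*, the last a membrane protein that binds nicotinic receptors, at 0.04 to 0.05. *Lynx1* ranked there through a probe (log2 difference −0.15) other than its brightest (−0.006). *Ache* was 1.03 and *Nos1* 1.02 from the brighter *Chat* probe. The genes nearest to *Nos1* were *Spata32*, *Ppef2*, *Trpm1*, *Glp1r* and *Runx3*, and 0 of these 5 were among the nearest when group means were taken off.

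**Figure D2:**
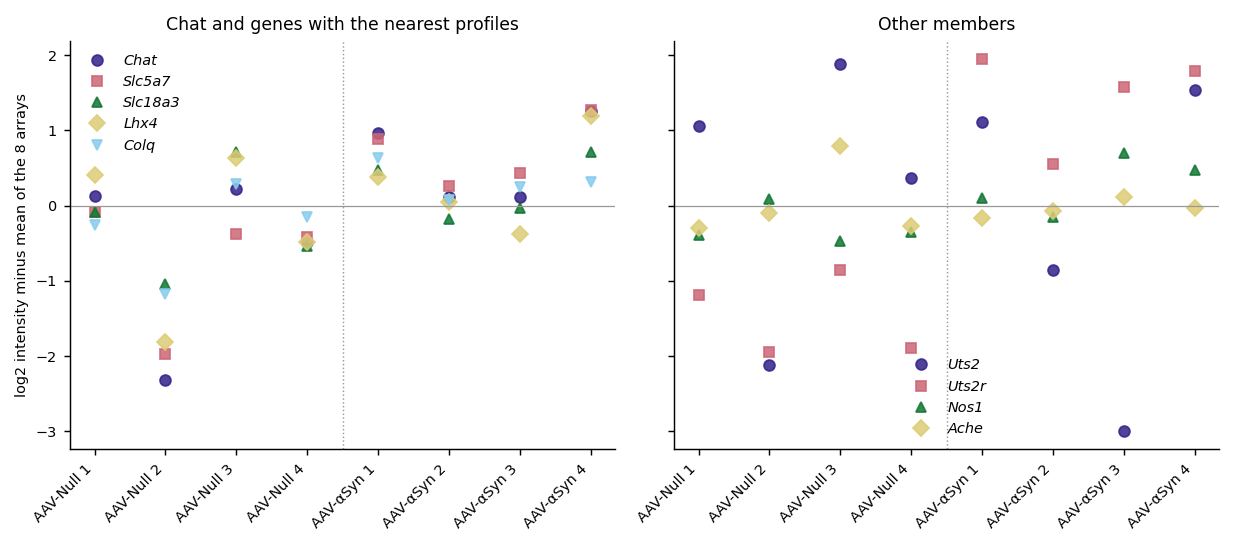
The log2 intensity minus the mean of the 8 arrays (vertical axis) is plotted for each array (horizontal axis, AAV-Null replicates 1 to 4 and then AAV-αSyn replicates 1 to 4). On the left, *Chat*, *Slc5a7*, *Slc18a3*, *Lhx4* and *Colq* are all lowest on AAV-Null replicate 2, and on the right *Uts2* spans 4.87 log2 units, *Nos1* 1.17 and *Ache* 1.09, while the AAV-Null points of *Uts2r* are below background.

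Signs of other cell types moved with the groups. The summed intensity of 5 serotonergic markers ranged from 687 to 2626 in the AAV-Null group and from 2222 to 5966 in the AAV-αSyn group, and limma's unadjusted p was under 0.05 for 2 of the 5, both higher, where 5.65% of all probes had such a p, 3.31% on the higher and 2.34% on the lower side. *Fev*, the defining transcription factor of these neurons, was above background on 1 AAV-Null and 3 AAV-αSyn arrays. *Tph2*, which encodes the tryptophan hydroxylase of serotonergic neurons, was 8.32, 8.12, 10.61 and 8.99 in the AAV-Null group and 11.16, 11.51, 10.59 and 12.20 in the AAV-αSyn group. The array with the highest serotonergic level in the AAV-Null group, replicate 3, also had the highest AAV-Null value of *Uts2*, *Chat*, *Slc18a3* and *Ache*, but the lowest of *Nos1* and, for *Slc5a7*, a value (9.41) below that of replicate 1 (9.70). AAV-αSyn replicate 4, the highest of all, had the highest *Chat* and *Slc5a7* of the 8 arrays. AAV-αSyn replicate 2, with the next highest serotonergic sum (4078), had the lowest *Slc5a7* (10.04) and *Slc18a3* (8.75) of its group. Its *Chat* (10.27) was level with that of replicate 3. AAV-Null replicate 1, with the lowest sum (687), had the highest *Slc5a7* of the AAV-Null group. Of 2 noradrenergic markers, *Dbh* was above background on 0 AAV-Null and 3 AAV-αSyn arrays, so that its difference is against background and no p is used. *Slc6a2* was above background on 2 AAV-Null arrays and 1 AAV-αSyn array, so its log2 difference of −0.39 is not a size either. Of 2 glycinergic markers 1 was higher (*Slc6a5*, log2 difference 1.28, adjusted p = 0.0423 in limma's fit, not past the adjustment once the slide row, equal to the replicate number, was blocked). Of 5 Hox genes of the hindbrain, *Hoxa2* was higher by the unadjusted p, with a log2 difference of 0.86 (standard error 0.26). *Hoxa4*, *Hoxb3* and *Hoxb5* were above background on 0 AAV-Null arrays and on 2, 2 and 1 AAV-αSyn arrays, and *Hoxd3* had a log2 difference of −0.06. The part of this tissue composition in the values of the members was not tested.

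Markers of the SN itself and of the thalamus went the other way. All 7 dopaminergic markers were lower on average, 4 of them with an unadjusted p under 0.05 in limma's fit (2.34% of all probes were lower at this threshold), and their summed intensity ranged from 153382 to 195272 in the AAV-Null group and from 119511 to 130119 in the AAV-αSyn group. The 6 thalamic markers were likewise lower on average, 3 of them by the same threshold, with sums of 5091 to 18346 and 2766 to 6001. Among 14 markers of the broad brain cell classes, 1 was lower by the unadjusted p (*Syt1*, log2 difference −0.40) and none was higher. Their means were higher in the AAV-αSyn group for 10 of the 14, and their summed intensity did not overlap between the groups, at 414307 to 441055 on the AAV-Null and 444952 to 496694 on the AAV-αSyn arrays.

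Markers of other cholinergic neurons were present at summed levels that overlapped between the groups. The sum of 3 cranial motor neuron markers was 5116 to 7580 on the AAV-Null and 5599 to 6337 on the AAV-αSyn arrays, with *Calca* lower (log2 difference −0.77, unadjusted p = 0.0408 in limma's fit). The sum of 3 forebrain cholinergic markers was 357 to 1487 and 621 to 1198, and that of 2 medial habenula markers 144 to 1120 and 230 to 321, with none of these 5 genes past an unadjusted p of 0.05. *Phox2a*, *Tbx20* and *Mnx1*, transcription factors of motor neurons, and *Lhx8*, of forebrain cholinergic neurons, were above background on no array. *Isl2*, another factor of motor neurons, was above background on all 8 arrays, and *Isl1*, shared by motor and forebrain cholinergic neurons, on 3 AAV-Null arrays and 1 AAV-αSyn array. The log2 difference of *Isl2* was −0.31 (standard error 0.23). That of *Isl1*, −1.25 (standard error 0.82), is not a size, since most of its AAV-αSyn signals were not above background. The groups overlapped for both.

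**Figure D3:**
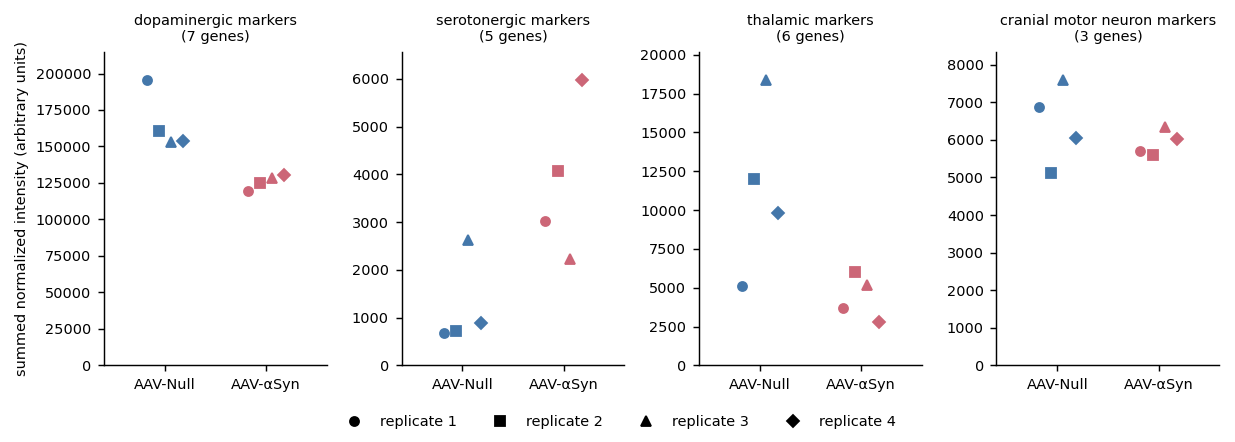
The summed normalized intensity of 4 marker lists (vertical axes, arbitrary units from 0) is plotted for each array by group (blue, AAV-Null; red, AAV-αSyn), with a marker shape for each replicate number. The dopaminergic sums of the AAV-αSyn arrays, 119511 to 130119, lie below all AAV-Null arrays, while the cranial motor neuron sums overlap.

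The wider pathways were described with 85 further genes, of which 67 were above background on at least 1 array. None of the 67 was past the Benjamini–Hochberg adjustment in limma's fit, where 0.0148% of all probes were, and 11 had an unadjusted p under 0.05, where 5.65% of all probes did. Of the 11, 6 were higher (3.31% of all probes) and 5 lower (2.34%). The median log2 difference of the 67 was −0.01, and that of all probes was 0.01. The count fell to 7 without AAV-Null replicate 2, AAV-αSyn replicate 1 or AAV-αSyn replicate 2.

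The receptors for acetylcholine were the pathway list with the most genes lower by the unadjusted p. Of 21 receptor genes 14 were analysed, with a median log2 difference of −0.09. By the unadjusted p, 4 nicotinic subunit genes were lower (2.34% of all probes) and none was higher (3.31%). These 4, *Chrna5*, *Chrna3*, *Chrna6* and *Chrnb3*, encode subunits that dopaminergic neurons of the midbrain carry. *Chrna3* was 6.82, 7.05, 6.75 and 7.39 in the AAV-Null group and 5.86, 6.06, 6.58 and 6.43 in the AAV-αSyn group, with no overlap. Its log2 difference was −0.77 (standard error 0.20), and its p in limma's fit was 0.00470 before and 0.643 after adjustment. *Chrna5* had a log2 difference of −0.81 (standard error 0.29), *Chrna6* of −0.56 (standard error 0.22) and *Chrnb3* of −0.52 (standard error 0.21), with overlapping groups and adjusted p-values of 0.821, 0.844 and 0.853 in limma's fit. The dopaminergic markers given above were lower in the same group, and their part was not tested. Within the AAV-Null group, replicate 1 had the highest dopaminergic sum (195272), the highest *Chrnb3* (6.94) and the lowest *Chrna5* (10.11). Its *Chrna3* (6.82) and *Chrna6* (7.39) lay between those of the other arrays. Among 5 partners of nicotinic receptors none passed the unadjusted threshold. *Tmem35a*, the chaperone NACHO, had the largest difference there at −0.28 (standard error 0.22), and −0.03 without AAV-αSyn replicate 1.

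Of 13 genes of choline supply and of the anchoring of esterases, 3 were higher by the unadjusted p (3.31% of all probes) and none was lower (2.34%). *Bche*, which encodes butyrylcholinesterase, had a log2 difference of 0.36 (standard error 0.12). *Prima1*, which encodes the membrane anchor of acetylcholinesterase in brain, had 0.23 (standard error 0.085), and *Chka*, choline kinase alpha, had 0.20 (standard error 0.067). The groups of these last genes did not overlap, as for 2.56% of all probes in this direction. The adjusted p-values of the 3 genes in limma's fit, in this order, were 0.760, 0.826 and 0.772. These differences are small beside those of *Slc5a7* and the brighter *Chat* probe.

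On the nitric oxide side, 1 of 15 genes passed the unadjusted threshold, where 5.65% of all probes did. This was *Gucy1a1*, which encodes a subunit of soluble guanylate cyclase, the nitric oxide receptor. It was 7.82, 7.86, 7.79 and 7.97 in the AAV-Null group and 8.21, 8.35, 8.18 and 8.40 in the AAV-αSyn group. All AAV-αSyn arrays were above all AAV-Null arrays, with a log2 difference of 0.42 (standard error 0.081). Its p in limma's fit was 0.000724 before and 0.486 after adjustment.

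Downstream of the urotensin receptor, 9 genes of Gq signalling were analysed. Only *Gna14*, a G protein alpha subunit of the Gq class, passed the unadjusted threshold, where 5.65% of all probes did. Its log2 difference was 0.59 (standard error 0.25, adjusted p = 0.870 in limma's fit), with overlapping groups. Among 7 genes of the somatostatin family, whose peptides resemble urotensin II, *Sst* was higher (3.31% of all probes) and *Sstr5* was lower (2.34%) by the unadjusted p. *Sst* was 13.48, 13.72, 13.63 and 13.66 in the AAV-Null group and 14.10, 14.18, 13.78 and 14.15 in the AAV-αSyn group. The groups did not overlap, and the log2 difference was 0.43 (standard error 0.11). Its p in limma's fit was 0.00382 before and 0.605 after adjustment. *Sstr5* had a log2 difference of −0.30 (standard error 0.12, adjusted p = 0.849 in limma's fit).

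Of 10 transcription factors of cholinergic neurons, 4 were above background on at least 1 array and none passed the unadjusted threshold. *Lhx4*, the second nearest profile to *Chat*, was 6.67, 4.47, 6.91 and 5.79 in the AAV-Null group and 6.66, 6.31, 5.90 and 7.46 in the AAV-αSyn group. The groups overlapped, and the log2 difference was 0.62 (standard error 0.56). It was 0.13 without AAV-Null replicate 2, 0.94 without AAV-Null replicate 3, 0.33 without AAV-αSyn replicate 4 and 1.35 with array weights.

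**Figure D4:**
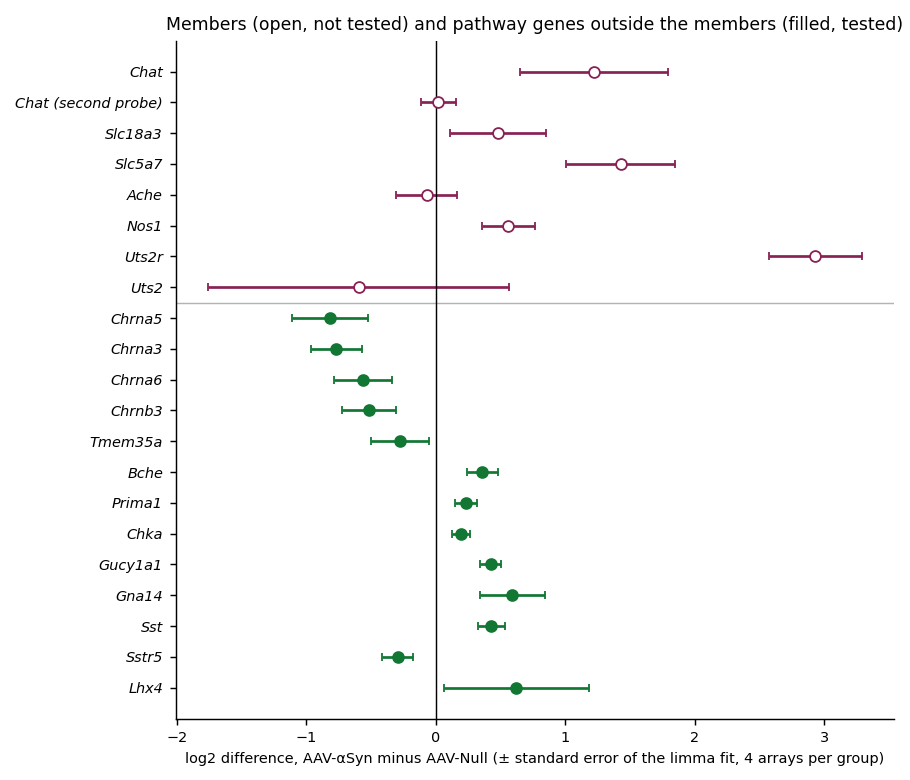
The log2 difference between the AAV-αSyn and the AAV-Null group (horizontal axis) with its standard error is plotted for the member probes (open circles, given without a test) and for the pathway genes named in the text (filled circles). *Uts2r* at 2.93 is measured against AAV-Null signals below background, *Uts2* has a standard error of 1.16, and the 4 nicotinic subunit genes lie between −0.81 and −0.52.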

How the data were processed

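RNA from the SN was hybridised to 8 Agilent 1-colour arrays (4 AAV-αSyn, 4 AAV-Null). Per spot, the authors deposited Feature Extraction's background-corrected intensity, not normalized between arrays (version 12.0.3.2 in the file headers, 11.5.1.1 in the submitters' processing notes). The authors also deposited a matrix of quantile-normalized log2 values, which was used as an alternative. The methods state 3 arrays per group, without saying which, and all 8 deposited arrays were used.

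Control spots and spots marked as outliers were left out. A probe was above background on an array where at least 0.5 of its spots were called so, and probes that passed on at least 1 array were kept. With R 4.3.3 and limma 3.58.1, log2 intensities were quantile normalized and averaged over a probe's spots, and groups were compared by lmFit and eBayes (two-sided, Benjamini–Hochberg over 33848 probes, threshold 0.05). The number of arrays limits the precision. Where a gene had several probes the brightest stands for it, except for genes ranked by profile beside a member, where the nearest probe does. Names came from RefSeq accessions of GRCr8, which named 21229 of 45598 probes and all 8 members. The sources used here name no build for the expression values.

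The members and gene lists were chosen with earlier results of these data known. Of each pathway list, genes with an unadjusted p under 0.05 are named (up to 5 by size), or else the gene with the largest difference among those above background on all 8 arrays. Profiles were compared for members above background on all 8 arrays that span over 1 log2 unit. As alternatives, the scaling, background correction, filter, variance model, blocks and choice of probe were changed and arrays were left out 1 at a time. The procedure was tested on simulated data.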

Additional observations from a re-analysis of the deposited data

Results flagged for a closer look

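In 5 of 76 groups of 4 arrays examined, the gap between the highest or lowest array and its neighbour took an unusually large share of the group's range (Dixon's ratio, above its 95% critical value), where chance gives 3.8 such groups. *Tmem35a* was 11.53 on AAV-αSyn replicate 1 and 12.46 to 12.58 on the other AAV-αSyn arrays (ratio 0.884). The summed level of the acetylcholine receptors was 6632 on AAV-Null replicate 1 and 7921 to 8081 on the other AAV-Null arrays (ratio 0.889). That of the dopaminergic markers was 195272 on the same array and 153382 to 160451 on the others (ratio 0.831). That of the medial habenula markers was 1120 on AAV-Null replicate 4 and 144 to 301 on the others (ratio 0.839). That of the serotonergic markers was 2626 on AAV-Null replicate 3 and 687 to 878 on the others (ratio 0.902). AAV-Null replicate 2, the lowest array for *Chat*, *Slc5a7* and *Slc18a3*, was not set apart by this ratio for any of them.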

How the results depend on the processing

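The differences of the members lay on the same side of 0 under all 12 changes of processing and all 8 comparisons with 1 array left out for *Chat* (brighter probe), *Slc18a3*, *Slc5a7*, *Nos1* and *Uts2r* (11 changes for *Uts2r*, which is not above background on all 8 arrays). The sign changed for *Ache* and *Uts2* with array weights and with 1 array left out, and for the dim *Chat* probe. Of 158 such values, 157 moved by less than the SD of the same probe within groups. These SDs are wide, at 1.91 for *Uts2* and 0.93 for the brighter *Chat* probe, so the count says little about stability. The exception was *Uts2r* with normexp (0.46), the offset of 50 being larger than its signals. With 1 array left out, the log2 difference of *Uts2r* ranged from 2.77 to 3.22. The count of all probes past the adjustment, 5, became 10 with array weights and 3 with the side of the slide as a block, and ranged from 3 to 5 with 1 array left out (3 when the array was from the AAV-Null group). No pathway gene was past the adjustment under any of the 20 settings. The count at an unadjusted p under 0.05, 11, ranged from 8 to 16 over the changes of processing and from 7 to 12 with 1 array left out (7 without AAV-Null replicate 2, AAV-αSyn replicate 1 or AAV-αSyn replicate 2). Over the changes of processing the log2 differences nearest to 0 were −0.42 for *Chrna3*, −0.34 for *Chrna6*, −0.29 for *Chrnb3*, 0.09 for *Prima1* and −0.10 for *Sstr5*.

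With the replicate number, which is also the row of the slide in both groups, as a block, 0 probes were past the adjustment, *Slc6a5* included. The deviations of arrays with the same number correlated at 0.14 and 0.27 for replicates 1 and 2 and at 0.04 and −0.0022 for replicates 3 and 4, so not every pair deviated together and the number was not used as a pairing. Signals near background limit *Uts2r* and *Uts2b* most. Profiles with group means taken off or over 7 arrays, the pattern of calls of *Uts2r*, and the pathway counts in each direction were added after seeing the data.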
